A study of Mus musculus with 30 samples.

Results

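The microRNA precursors Mir7-1, Mir7-2, Mir7b and Mir7j were taken by their symbols from small RNA tables of 5 mouse organs. They are 4 of the 2194 named features in each table. They were selected on their symbols with the deposited means and fold changes known, and the contrast of Mir7j in spleen, the smallest p in that organ, is treated as a value that chose it. The organs were whole brains, hearts, kidneys, livers and spleens of 3 Ftsj1_DF and 3 WT mice, all male and 4 months old. Ftsj1 encodes a tRNA ribose methyltransferase, and the design compares the 2 genotypes within each organ. Of the 6 mice, 4 were brothers and the other 2 were brothers of each other. Heart, kidney and liver each include 1 WT library of a second batch, per the labels. The genotype labels could not be checked here, because an mRNA is not counted in these tables. Each of the authors' deposited tables gives 1 mean and 1 fold change per feature and does not name the genotype in the numerator. The 3 libraries of an organ that stand in the numerator are called the positive side below, and the 3 of the other genotype the negative side. Their whole reads were recovered from the deposited means and fold changes for 17 of the 20 pairs of a precursor and an organ. Mir7-1, Mir7-2 and Mir7b in brain, with means above 30000 normalized counts, were searched as well but not resolved.

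MicroRNAs are short RNAs cut from hairpin precursors that repress messages through their seed, bases 2 to 8. miR-7 is an old microRNA, abundant in neurons and in neuroendocrine cells such as those of the pituitary and the pancreatic islet. It binds many sites on the circular RNA Cdr1as, which miR-671 can cut. The let-7 microRNAs are a separate family, abundant in differentiated tissue. In whole organs, fewer cells of a type and less RNA per cell cannot be told apart.

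By sequence the 4 precursors fall into 2 families. The mature 5′ arms in RefSeq (GRCm38.p6) are shown first because they set which reads the precursors can share, with the seed in capitals. let-7i-5p is added as the RefSeq mature sequence nearest to that of Mir7j.
miR-7a-5p, from Mir7-1 and from Mir7-2: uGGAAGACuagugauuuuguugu
miR-7b-5p, from Mir7b: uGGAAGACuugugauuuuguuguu
let-7j, from Mir7j: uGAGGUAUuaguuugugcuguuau
let-7i-5p, from Mirlet7i: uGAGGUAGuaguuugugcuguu

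Mir7-1 and Mir7-2 give the same 5′ arm to the last base. miR-7b-5p differs from miR-7a-5p at 1 of 23 compared positions, A10U with the base of miR-7a-5p first and positions counted from 1 at the 5′ end, outside the seed. Of the 1738 mature entries in the RefSeq table, 3 have the seed of these arms, and they are the ones of Mir7-1, Mir7-2 and Mir7b. Mir7j belongs to the group by symbol alone. Its annotated mature RNA is named let-7j, and 14 of 23 positions differ from miR-7a-5p. Over 22 positions it differs from let-7i-5p at 1, G8U with the base of let-7i-5p first, which is the last base of the seed. Of the other precursors in RefSeq, Mir202 alone has an arm with the let-7j seed.

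The 3′ arms tell the miR-7 copies apart better than the 5′ arms do, so the whole hairpins are shown with the annotated mature arms in capitals.
Mir7-1: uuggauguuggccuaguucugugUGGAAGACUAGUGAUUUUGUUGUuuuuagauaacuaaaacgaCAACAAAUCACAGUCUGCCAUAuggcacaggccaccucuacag
Mir7-2: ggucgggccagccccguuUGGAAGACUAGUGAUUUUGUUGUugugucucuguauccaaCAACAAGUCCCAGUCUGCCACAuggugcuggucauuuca
Mir7b: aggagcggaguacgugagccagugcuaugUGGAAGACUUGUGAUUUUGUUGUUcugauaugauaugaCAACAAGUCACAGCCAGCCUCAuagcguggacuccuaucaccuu
Mir7j: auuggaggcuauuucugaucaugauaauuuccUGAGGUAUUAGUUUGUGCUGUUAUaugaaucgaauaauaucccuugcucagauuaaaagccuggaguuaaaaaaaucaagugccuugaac

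The 3′ arms of Mir7-1 and Mir7-2 differ at 3 of 22 positions (A7G, A10C and U21C, with the base of Mir7-1 first), and those of Mir7-1 and Mir7b at 5. In the GRCm38 annotation used here, Mir7-1 lies at chr13:58392779-58392886 on the minus strand, in an intron of Hnrnpk, an RNA-binding protein gene on the same strand. Mir7-2 lies at chr7:78888277-78888373, Mir7b at chr17:56242988-56243098 and Mir7j at chr3:140028249-140028370. These 3 are on the plus strand and overlap no annotated gene. No other annotated microRNA lies within 10 kb of any of the 4. The deposited tables were made on GRCm39 and hold no coordinates.

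All 3 miR-7 precursors were highest in brain. Together Mir7-1, Mir7-2 and Mir7b made up 1.33% of the summed means in brain, 0.355% in spleen, 0.164% in liver, 0.0624% in kidney and 0.0431% in heart, from the authors' deposited tables. The organs were normalized separately, so levels across organs are a description. Mir7-1 stood at 4668 counts per 1000000 of the summed means (CPM) in brain, 1491 in spleen, 829 in liver, 280 in kidney and 197 in heart, from the authors' deposited tables. Mir7-2 stood at 5094, 2041, 801, 330 and 213 CPM in the same order of organs, again from the authors' deposited tables. Brain exceeded heart 23.6-fold for Mir7-1 and 23.9-fold for Mir7-2. Brain exceeded spleen, the next organ, 3.13-fold for Mir7-1 and 2.50-fold for Mir7-2. With the organs scaled by the median of ratios over shared features, liver came second for both genes, and brain exceeded it 1.71-fold for Mir7-1 and 1.92-fold for Mir7-2.

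In CPM, the 6 libraries of an organ spread at most 1.86-fold for these 2 genes, in the 4 organs with recovered reads. For Mir7-1 they ran over 187 to 222 in heart, 219 to 393 in kidney, 636 to 1185 in liver and 1168 to 1811 in spleen. Neighbours in the order therefore touched for heart with kidney and for liver with spleen. For Mir7-2 the libraries ran over 194 to 256 in heart, 252 to 382 in kidney, 645 to 996 in liver and 1742 to 2325 in spleen, and only heart and kidney overlapped among these 4 organs.

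Mir7b was far more concentrated in brain. It stood at 3510 CPM in brain, 20.4 in heart, 19.6 in spleen, 13.6 in kidney and 8.20 in liver, from the authors' deposited tables. Brain exceeded heart, the next organ, 172-fold. Outside brain the libraries of neighbouring organs overlapped, at 14.6 to 25.7 CPM in heart, 15.3 to 23.1 in spleen, 3.74 to 46.6 in kidney and 2.20 to 11.7 in liver. Their order was not kept when the organs were scaled by the median of ratios, where liver came second and spleen last.

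Mir7j was a low feature with another order. It stood at 69.8 CPM in spleen, 46.7 in brain, 27.2 in heart, 16.7 in liver and 14.0 in kidney, from the authors' deposited tables. Its libraries ran over 38.4 to 123 CPM in spleen and 35.2 to 69.2 in brain, so these 2 organs overlapped, as did heart (11.4 to 32.3), liver (3.13 to 37.9) and kidney (4.77 to 22.6) with one another. Scaling by the median of ratios kept spleen first and put liver second, above brain and heart. Beside 1000 normalized counts of Mirlet7i, whose mature RNA is 1 base away, Mir7j had 3.52 in liver, 2.50 in spleen, 1.67 in brain, 1.42 in heart and 1.40 in kidney, from the means in the authors' deposited tables. Mirlet7i was chosen for this after the sequences were seen. How the authors counted reads that match both let-7i and let-7j is not given in the sources used here, so the Mir7j counts are uncertain to that extent.

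**Figure D1:**
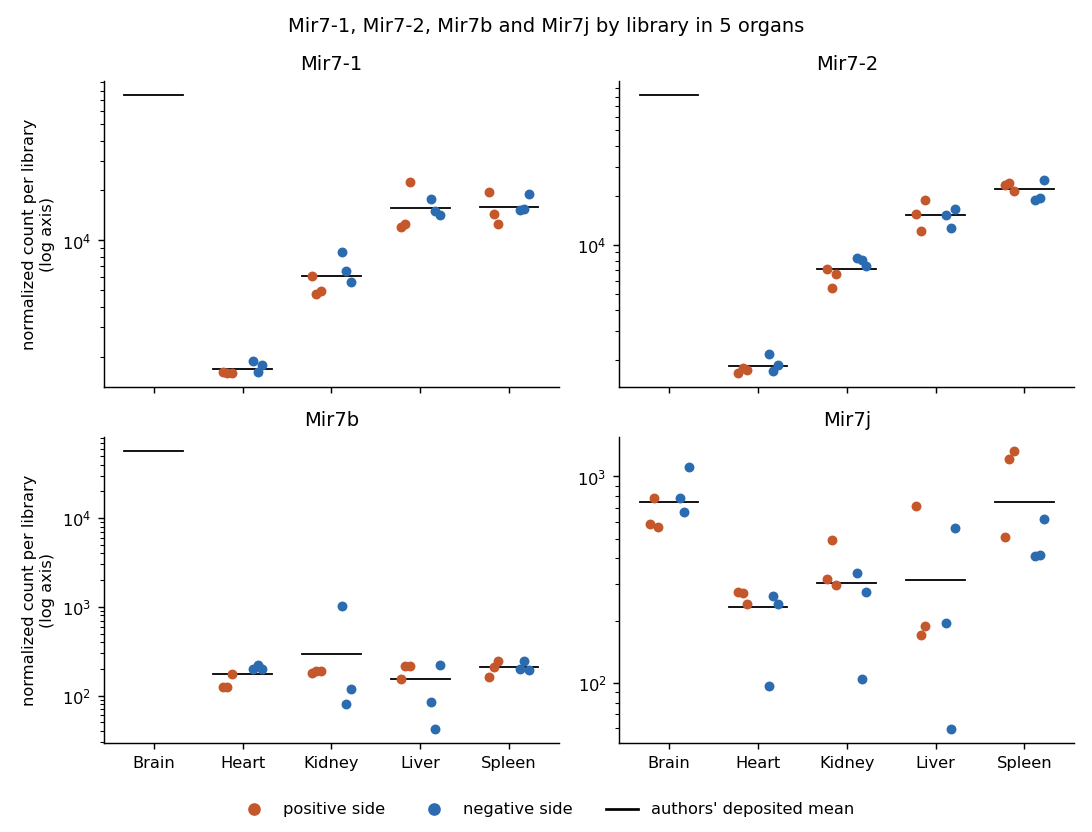
Normalized counts on log axes for Mir7-1, Mir7-2, Mir7b and Mir7j in 5 organs, with 1 point per library where whole reads were recovered (positive side left, negative side right) and a line at the mean in the authors' deposited table. The lines of the 3 miR-7 genes are highest in brain, while Mir7j is near 750 in brain and in spleen, and in kidney 1 Mir7b library stands at 1014.

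The make-up of the miR-7 reads differed between organs. This comparison needs no scaling, since it is taken within a library, and it was chosen after the reads were seen. The 5′ arm of Mir7b is 1 base away from that of Mir7-1 and Mir7-2. How the authors counted reads that match both is not given in the sources used here, so the Mir7b share is uncertain to that extent. Mir7b gave 4.72% ± 0.987 of the reads of the 3 precursors in heart, 1.98% ± 1.86 in kidney, 0.563% ± 0.138 in spleen and 0.508% ± 0.266 in liver (SD, n = 6 libraries each). The means in the authors' deposited table for brain put it at 26.4%. Heart libraries, at 3.56% to 6.19%, did not overlap those of liver, at 0.150% to 0.850%, or of spleen, at 0.384% to 0.727%. Of 12 comparisons of make-up between organ pairs, 7 passed an adjusted p of 0.05 in exact two-sided permutation tests of 6 libraries against 6, which treat the organs of 1 mouse as independent. Heart exceeded liver by 4.21 and spleen by 4.15 percentage points (exact permutation p = 0.00216, the smallest possible, adjusted p = 0.00866 for each). Kidney exceeded liver by 1.47 and spleen by 1.41 points (exact permutation p = 0.0108, adjusted p = 0.0216 for each). Without the kidney library highest in Mir7b the kidney share was 1.24%, and these differences were 0.731 and 0.675 points (exact permutation adjusted p = 0.0325 for each). Liver minus spleen was -0.06 points (exact permutation p = 0.636). The heart and kidney difference of 2.74 points passed (exact permutation adjusted p = 0.0297). It no longer passed without the kidney library lowest in Mir7b (exact permutation adjusted p = 0.0594). Nor did it pass without the negative-side heart library with the highest size factor (exact permutation adjusted p = 0.0519).

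Mir7-2 reads exceeded Mir7-1 reads in every library of spleen and of heart, where the lowest ratios were 1.19 and 1.02. The ratio ran from 0.971 to 1.33 in kidney and from 0.841 to 1.28 in liver. Mir7-2 reads over Mir7-1 reads came to 1.39 ± 0.224 in spleen, 1.196 ± 0.133 in kidney, 1.08 ± 0.0498 in heart and 0.992 ± 0.184 in liver (SD, n = 6 libraries each), and to 1.09 in brain from the means in the authors' deposited table. Heart minus spleen was -0.31 (exact permutation adjusted p = 0.00866) and liver minus spleen was -0.40 (exact permutation adjusted p = 0.0216), and these were the 2 of 6 ratio comparisons that passed. Kidney minus spleen, at -0.20, did not pass (exact permutation p = 0.117). In spleen 2 libraries of the positive side, at 1.64 and 1.71, stood above the other 4, which ran from 1.19 to 1.32. The comparisons were not repeated without these 2 libraries. Because the 5′ arms of the 2 genes are identical, the split of those reads between them depends on how the authors counted reads with several matches, which is not given in the sources used here. The levels of Mir7-1 and Mir7-2 as separate genes are uncertain for that reason.

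**Figure D2:**
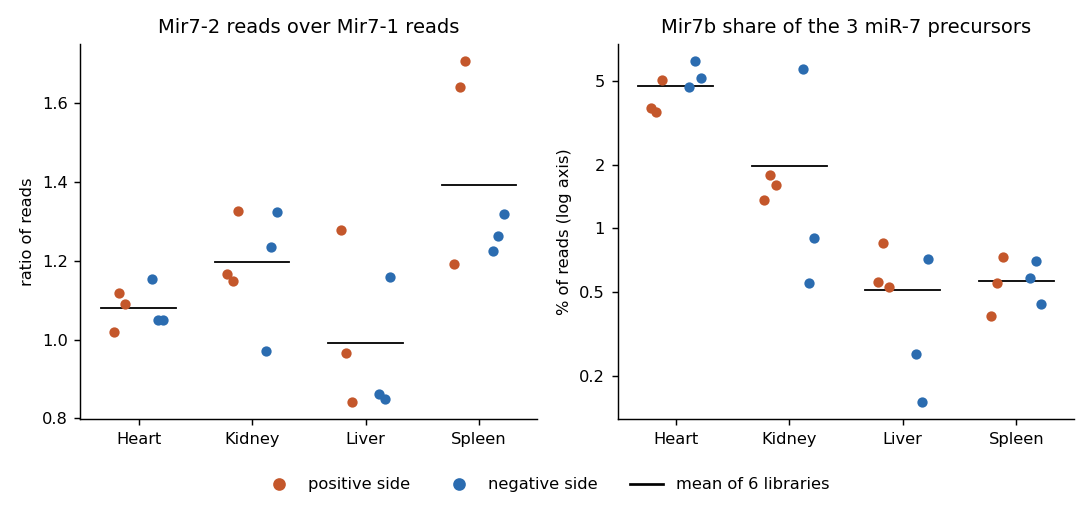
Ratio of Mir7-2 to Mir7-1 reads (left, linear axis) and Mir7b as a percentage of the reads of Mir7-1, Mir7-2 and Mir7b (right, log axis) in each library of 4 organs, positive side left of negative side, with a line at the mean of 6 libraries. Heart libraries lie at 3.56% to 6.19% Mir7b, above all liver and spleen libraries, and 1 kidney library lies at 5.67%.

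Between the genotypes, none of the 4 precursors passed an adjusted p of 0.05 by DESeq2 in any organ of the authors' deposited tables. Over all features, 1.13% of those tested passed in heart, 0.229% in liver and 0% in each of brain, kidney and spleen. At an unadjusted p under 0.05, 1 of the 19 contrasts with a p passed, Mir7j in spleen, where 3.48% of all features did so. The shares of all features at that level were 2.23% in brain, 5.33% in heart, 4.5% in kidney and 3.9% in liver. The sign was negative in 4 of 5 organs for Mir7-1, 2 of 5 for Mir7-2, 4 of 5 for Mir7b and 1 of 5 for Mir7j.

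In brain, where miR-7 was most abundant, the fold changes of the 3 miR-7 precursors lay near 0. The log2 fold changes in the authors' deposited table for brain were -0.01 for Mir7-1, 0.02 for Mir7-2 and -0.04 for Mir7b, each with a standard error (SE) of 0.24 to 0.25. The 95% interval ran from -0.50 to 0.48 for Mir7-1, from -0.46 to 0.50 for Mir7-2 and from -0.51 to 0.43 for Mir7b, computed from the authors' deposited table for brain. The adjusted p by DESeq2 was 0.989 or above for each of them in the authors' deposited table.

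In heart and spleen Mir7-1 and Mir7-2 also differed little. Mir7-1 had 1624, 1589 and 1589 normalized counts on the positive side of heart and 1887, 1618 and 1775 on the negative side. The sides overlapped, and the authors' deposited table gives log2 -0.14 (SE 0.21). Mir7-2 had 1655, 1775 and 1733 on the positive side of heart and 2177, 1698 and 1862 on the negative side, and the authors' deposited table gives log2 -0.15 (SE 0.21). In spleen Mir7-1 had 19450, 14497 and 12543 normalized counts on the positive side and 15280, 15372 and 18938 on the negative side. Its highest and its lowest library were both on the positive side, and the authors' deposited table gives log2 -0.09 (SE 0.24). Mir7-2 in spleen had 23194, 23800 and 21405 on the positive side and 18710, 19402 and 24960 on the negative side, and the authors' deposited table gives log2 0.12 (SE 0.22).

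Kidney gave the lowest fold changes of both genes. Mir7-1 had 6099, 4779 and 4987 normalized counts on the positive side of kidney and 8570, 6559 and 5635 on the negative side. Mir7-2 had 7120, 5492 and 6614 on the positive side and 8320, 8104 and 7465 on the negative side. The sides overlapped for Mir7-1 and did not for Mir7-2. Non-overlap was seen for 12.4% of the 363 kidney features with recovered reads, and the exact two-sided permutation test of 3 against 3 gave p = 0.1, the smallest it allows. The log2 fold changes in the authors' deposited table for kidney were -0.39 (SE 0.33) for Mir7-1 and -0.31 (SE 0.30) for Mir7-2, and the adjusted p by DESeq2 was 0.975 for each.

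In liver Mir7-1 had 12054, 12641 and 22449 normalized counts on the positive side and 17705, 15043 and 14279 on the negative side. Mir7-2 had 15394, 12209 and 18874 on the positive side and 15255, 12772 and 16549 on the negative side. For both genes the highest value was in the same library of the positive side, and the authors' deposited table puts the log2 fold changes at 0.00 (SE 0.36) and 0.06 (SE 0.31). That library also held most of the pancreatic Mir216a, a microRNA of the exocrine pancreas, with 2.74, 43.3 and 1698 normalized counts on the positive side and 12.1, 0 and 6.89 on the negative side. The 4 pancreas markers (Mir216a, Mir216b, Mir217 and Mir375) had positive log2 fold changes in 4 of 4 members in liver, with a median of 6.15 in the authors' deposited table, and 3 of them have no p there. In spleen the same 4 markers summed to 0.322% of the total and had negative log2 fold changes in 4 of 4, with a median of -0.60 in the authors' deposited table. The part of pancreas in the miR-7 values of liver and spleen was not tested. Without that liver library the ratio of the side means of Mir7-1 was 0.788, against 1.00 with it.

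**Figure D3:**
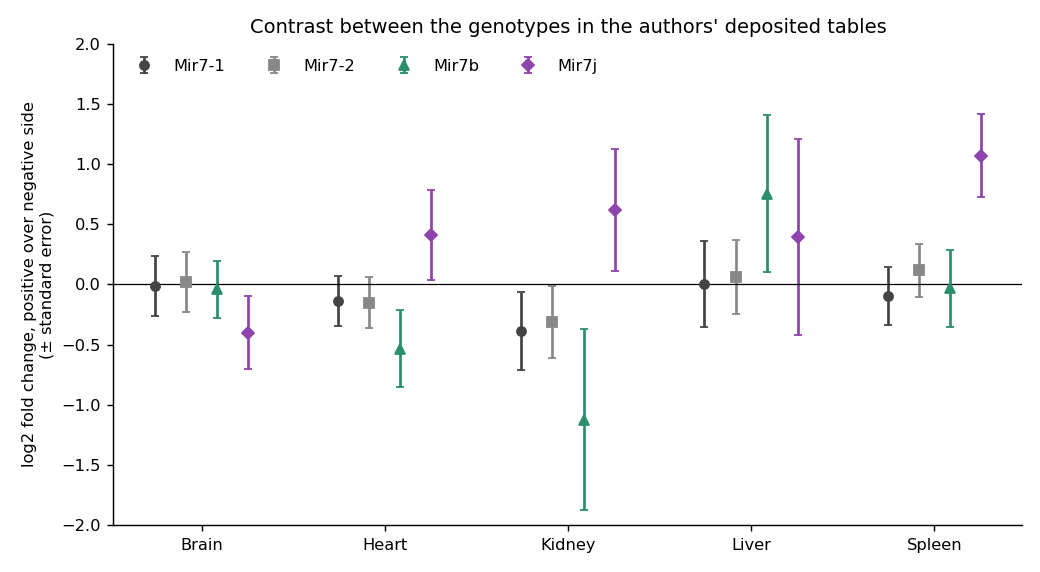
Log2 fold change of the positive over the negative side with its standard error, from the authors' deposited tables, for Mir7-1, Mir7-2, Mir7b and Mir7j in 5 organs. In brain Mir7-1, Mir7-2 and Mir7b lie within 0.05 of 0, and Mir7j lies below 0 in brain and above 0 in the other 4 organs, highest in spleen at 1.07.

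Relative to its mean, Mir7b varied more between libraries than Mir7-1 and Mir7-2 in heart, kidney and liver, and in kidney a single library set the sign of its contrast. In heart it had 126, 124 and 177 normalized counts on the positive side and 198, 219 and 198 on the negative side. The sides did not overlap, as was so for 15.4% of 382 heart features with recovered reads. The means were 142 ± 30.0 on the positive and 205 ± 11.97 on the negative side (SD, n = 3 each; exact permutation p = 0.1, the smallest possible). The authors' deposited table for heart gives log2 -0.53 (SE 0.32) and, by DESeq2, an adjusted p of 0.510. Mir7b in heart and Mir7-2 in kidney were the 2 of 17 pairs of precursor and organ whose sides did not overlap, where 9.17% of recovered features in brain, 9.76% in liver and 11.8% in spleen did not either.

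In kidney Mir7b had 181, 188 and 188 normalized counts on the positive side and 1014, 81.4 and 118 on the negative side. A single library with 1132 of the 1918 Mir7b reads stood above all others. The authors' deposited table gives log2 -1.12 (SE 0.75) and no p for it. Without that library the positive side exceeded the negative side 1.86-fold, whereas with it the ratio of the side means was 0.459. The same library had the highest Mir7-1 and Mir7-2 values in kidney, at 8570 and 8320. Of 14 neuron-enriched precursors with recovered reads in kidney, it was highest for 2, Mir132 and Mir212, named after their values were seen, and lowest for 1, Mir129-1. Mir132 stood at 1811 there, where the others had 1218 to 1379, and Mir212 at 412, where the others had 153 to 351. In the other direction, Mir129-1 stood at 72.6, where the others had 155 to 225. The part of neurons in the Mir7b value of this library was not tested.

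In liver Mir7b had 154, 213 and 218 normalized counts on the positive side and 84.0, 41.7 and 221 on the negative side. The highest and the lowest libraries were both on the negative side. The authors' deposited table gives log2 0.75 (SE 0.65) and, by DESeq2, an adjusted p of 0.991. The ratio of the side means, 1.69, was 3.10 without the highest library of the negative side and 1.28 without the lowest. In spleen Mir7b had 164, 213 and 249 on the positive side and 198, 246 and 192 on the negative side, with log2 -0.03 (SE 0.32) as the authors' deposited table has it.

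Mir7j had the smallest unadjusted p of all features in spleen in the authors' deposited table, which is part of why it was chosen, so its spleen values are a description. It had 511, 1212 and 1325 normalized counts on the positive side of spleen and 412, 418 and 619 on the negative side. The sides overlapped, and 2 of the 3 positive libraries stood above all others. The authors' deposited table puts the log2 fold change at 1.07 (SE 0.35), with 0.988 as the adjusted p by DESeq2. The 2 high libraries had the lowest size factors of the organ, 0.743 and 0.628, against 0.884 to 1.52 in the other 4. Total reads per library are not given, so their depth is known only through the size factors. These 2 libraries were also the 2 highest for 15.1% of the 398 spleen features with recovered reads. Whether depth had a part in the Mir7j values was not tested. Leaving out 1 library at a time moved the ratio of the side means, 2.10, between 1.78 and 2.63. For Mirlet7i in spleen the authors' deposited table gives log2 -0.03 (SE 0.25).

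In brain Mir7j had 588, 790 and 567 normalized counts on the positive side and 783, 672 and 1115 on the negative side. The sides overlapped, with log2 -0.40 (SE 0.30) as the authors' deposited table has it. In heart it had 275, 273 and 241 on the positive side and 96.7, 262 and 240 on the negative side. In kidney it had 317, 491 and 297 on the positive side and 341, 104 and 276 on the negative side. In each of these 2 organs 1 library of the negative side lay far below the rest. In liver Mir7j had 719, 170 and 188 on the positive side and 195, 59.3 and 565 on the negative side, a 12.1-fold range that was wide on both sides. The log2 fold changes in the authors' deposited tables were 0.41 (SE 0.37) in heart, 0.62 (SE 0.51) in kidney and 0.40 (SE 0.81) in liver.

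In heart, kidney and liver the library lowest in Mir7j was also the one that lacked Mir124a, the precursors of the neuronal microRNA miR-124. In these 3 libraries, all on the negative side, Mir124a-3 had 0 reads, which allows up to 3, while the other 5 libraries had 92 to 154 reads in heart, 87 to 255 in kidney and 107 to 457 in liver. Mir124a-1 had 0 reads in all 3, and Mir124a-2 had 2 in heart and 0 in kidney and liver. In spleen every library had Mir124a-3, with 127 to 223 reads. The same library was the lowest for 28.8% of recovered features in heart, 35.3% in kidney and 28.1% in liver, so being lowest there was common among all features. Mir7j was at 96.7 in that heart library, where the others had 240 to 275, at 104 in kidney, where the others had 276 to 491, and at 59.3 in liver, where the others had 170 to 719. Mir7b was also lowest there in kidney, at 81.4, and in liver, at 41.7, but not in heart, at 198. Without that library the ratio of the side means of Mir7j was 1.05 in heart, 1.19 in kidney and 0.944 in liver, against 1.32, 1.53 and 1.31 with it. In liver other single libraries moved it further, to 0.655 without the highest library of the positive side and to 2.82 without the highest of the negative side. For Mir7b the ratio was 0.683 in heart, 0.328 in kidney and 1.28 in liver without it, against 0.694, 0.459 and 1.69 with it.

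The 21 neuron-enriched precursors were read in the same libraries. Of the 21, 18 are in the tables, and reads were recovered for 17 in heart, 14 in kidney and 16 in liver. Their summed normalized counts were 23132 to 25006 on the positive and 24913 to 29358 on the negative side of heart, 26196 to 27865 and 25196 to 26142 in kidney, and 10154 to 12402 and 4274 to 14344 in liver, positive side first. At 0 reads were 2 of them in the heart library without Mir124a-3, 4 in the kidney one and 4 in the liver one. The library without Mir124a-3 was the lowest for 8 of 17 in heart, 8 of 14 in kidney and 11 of 16 in liver, where it also holds the lowest sum, 4274. The same library was the highest for 2 of 17 in heart, 3 of 14 in kidney and 2 of 16 in liver. Mir9-2, an abundant neuronal microRNA, was at 1262 there in heart, where the others had 1719 to 3205, and at 48.2 in liver, where the others had 744 to 3054. In kidney it was at 8292, where the others had 8869 to 10320. The part of neurons in the Mir7j and Mir7b values was not tested. The labels put 1 WT library of these same 3 organs in the second batch. The recovered libraries could not be tied to mice, so whether these libraries are of that batch, and the part of batch in the values, was not tested. In brain Mir124a-3 stood at 5660 CPM in the authors' deposited table, and Mir7b had 0.620 of its mean. The same quotient of the means in the authors' deposited tables was 2.01 in kidney, 1.26 in heart, 1.15 in spleen and 0.879 in liver. Without the kidney library highest in Mir7b it was 1.06 in kidney.

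**Figure D4:**
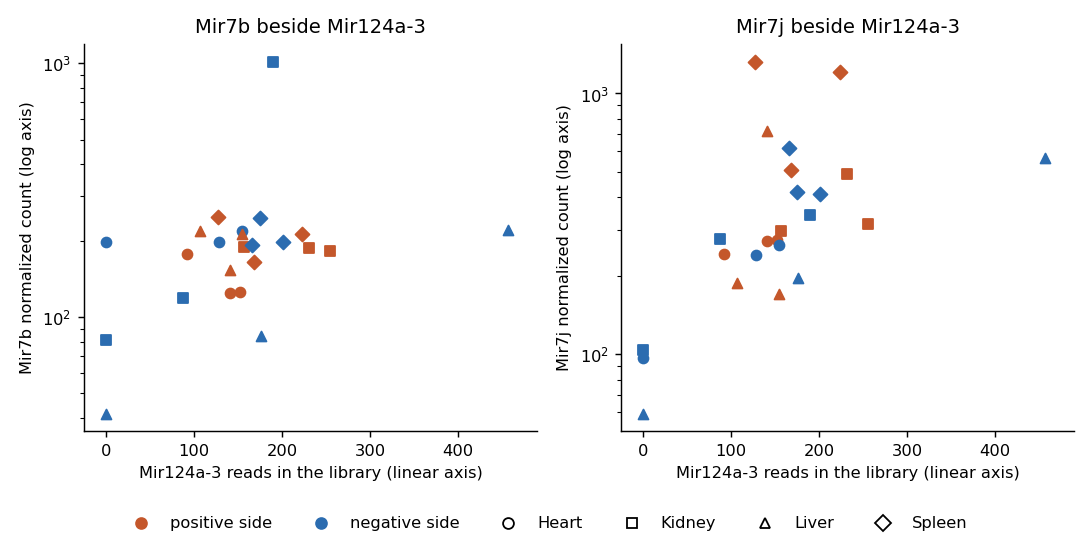
Normalized count of Mir7b (left) and Mir7j (right) on log axes against the Mir124a-3 reads of the same library on a linear axis, for 6 libraries each of heart, kidney, liver and spleen. The 3 libraries at 0 Mir124a-3 reads, all of the negative side, hold the lowest Mir7j count of heart, kidney and liver, and the kidney library at 1014 Mir7b has 190 Mir124a-3 reads.

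Differences of the contrast between organs were tested as z-scores over all features of each organ pair, with 36 tests for the 4 precursors. The z-scores treat the organs as independent, although they come from the same 6 mice. The 4 pairs of Mir7j with spleen were left out because Mir7j was chosen there. None of the 36 passed an adjusted p of 0.05, where 0.134% of all features did so for kidney against liver and 0% in the other 9 pairs, and none had an unadjusted p under 0.05. The widest was Mir7b, at log2 -1.12 in kidney and 0.75 in liver in the authors' deposited tables, a difference of -1.88 with a standard error of 0.99 (adjusted p = 0.999 across all features). Its kidney value turns on 1 library, without which the log2 ratio of the side means there was 0.90. For Mir7j the log2 fold changes of -0.40 in brain and 0.62 in kidney in the authors' deposited tables differed by -1.02 with a standard error of 0.59 (adjusted p = 0.996 across all features).

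The companions of miR-7 also showed no called contrast. Mir671, whose microRNA cuts Cdr1as, was at 46.5 CPM in brain, 29.9 in kidney, 28.4 in spleen, 25.5 in heart and 20.7 in liver, from the authors' deposited tables. Its log2 fold changes ran from -0.34 in heart to 0.20 in spleen in the authors' deposited tables, where DESeq2 gave an adjusted p of 0.733 or above. In spleen Mir671 had 333, 325 and 322 normalized counts on the positive side and 281, 283 and 287 on the negative side, which did not overlap, as for 11.8% of the 398 recovered spleen features. Among the neuron-enriched precursors 0 passed by DESeq2 in any organ, with median log2 fold changes of 0.55 in liver, 0.19 in kidney and in spleen, -0.03 in brain and -0.10 in heart in the authors' deposited tables. The medians over all features with a mean of at least 10 lay between -0.03 in kidney and 0.01 in liver. The neuroendocrine and sensory list (Mir375, Mir183, Mir96, Mir182 and Mir335) had 0 called members in any organ. Mir375 in liver, at log2 5.42 in the authors' deposited table, has no p there. In brain the sign was negative in 5 of 5, with a median of -0.59 in the authors' deposited table. Of all brain features with a mean of at least 10, 50.1% were negative. Mir182 and Mir183, of 1 cluster expressed in sensory cells, had log2 fold changes of -0.59 and -0.62 in brain in the authors' deposited table, where DESeq2 gave an adjusted p of 0.989 for each. Mir202, which shares the let-7j seed, had means of 11.5 normalized counts in brain and 11.04 in spleen, under 4 in heart and kidney and 0 in liver, in the authors' deposited tables.

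Of 574 other microRNA features, the levels most like Mir7b over the 5 organs were those of Mir760, Mir7224 and Mir496a, with Pearson r of 0.9999, 0.9996 and 0.998. Each was highest in brain, Mir760 at 95.8 CPM and at most 1.11 elsewhere in the authors' deposited tables. Mir7224 stood at 8.97 CPM in brain and at most 1.72 elsewhere, and Mir496a at 32.3 and at most 0.810, from the same tables. Outside brain all 3 lay near the 1 CPM added before the logarithm, so these r values rest mainly on brain against values near 0. Mir7-1 was most like Mir3084-1, Mir669e and Mir1843a (r of 0.975, 0.966 and 0.961), and Mir7-2 most like Mir3084-1, Mir669e and Mir1843b (r of 0.977, 0.958 and 0.958). Mir7j was most like Mir342, Mirlet7f-2 and Mir202 (r of 0.999, 0.997 and 0.971). Mir342, a microRNA of lymphocytes and brain, stood at 1488 CPM in spleen and 734 CPM in brain by the authors' deposited tables, and Mirlet7f-2 is a let-7 gene. Mir202 reached at most 1.03 CPM and Mir669e at most 1.52 CPM in any organ in the authors' deposited tables, near the 1 CPM added before the logarithm, so their likeness rests on values near 0. Each r rests on 5 organ means that share 6 mice.

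The organ labels held against the summed shares of their markers. Mir9-2 and the other neuronal markers summed to 20.05% in brain and at most 0.210% elsewhere, the heart muscle markers to 11.6% in heart, the kidney markers to 24.2% in kidney and 14.6% in liver, Mir122 to 26.2% in liver, and the spleen leukocyte markers to 1.47% in spleen and at most 0.184% elsewhere, from the authors' deposited tables. Single markers did not all follow, since the brain marker Mir9-1, the heart muscle marker Mir1a-2 and the leukocyte marker Mir142 are listed at 0 in all 5. Size factors ran from 0.4999 to 2.37 over the 30 libraries, and in liver they separated the sides, at 0.4999 to 0.729 on the positive and 1.45 to 2.15 on the negative side.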

How the data were processed

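Small RNA of 5 organs was sequenced after preparation with the NEXTflex small RNA kit v3, per the labels' protocols. The submitters' processing notes name featureCounts (Subread 2.0.3), GRCm39 and DESeq2 for the authors' counting and comparison. Not given in the sources used here are the aligner, the annotation and how reads with several matches were counted. The authors deposited 1 table per organ without values per sample. Its mean is a deposited signal, namely counts divided by size factors and averaged over the organ's libraries, per the file headers. The deposited fold change and standard error are on the log2 scale, the deposited Wald statistic is a score, and it has a deposited p-value and an adjusted one, per the file headers. A row without a name, 1 per table, was left out and held at most 1.82e-05% of the total. Columns with per-sample values that stayed unused numbered 0.

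Means under 1 gave the 6 size factors of each organ, since they are sums of whole reads divided by these. Whole reads of a feature were then searched among sets that give its mean, by repeating the arithmetic of the authors' DESeq2 fit on each. For low means all such sets were searched. For higher means the search took sets near the fitted side means, in widening windows, and stopped at the first window with a match. A feature was kept where exactly 1 searched set gave the deposited fold change within 3e-14 at the deposited standard error. Fewer than 0.02 expected chance matches were also required. This recovered 436 of 443 features with means from 10 to 30000 in brain, 382 of 385 in heart, 363 of 373 in kidney, 338 of 353 in liver and 398 of 406 in spleen. The split into sides is the one that gave the fold changes of 96 of 96, 77 of 77, 80 of 80, 70 of 70 and 87 of 87 features tried, against 0 for any other split, from a fit with genotype and no batch term. Libraries are numbered by falling size factor within a side.

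A contrast was called at the authors' adjusted p under 0.05. Sides were compared with exact two-sided permutation tests, which cannot go below p = 0.1, and organs with z-scores of 2 fold changes over their combined standard errors. P-values were adjusted by Benjamini-Hochberg. The tests of make-up were added after the reads were seen. The 4 precursors and the lists were chosen with earlier results of these data known. Named features were the 4 precursors, the 3 features with the most similar log2 levels (1 CPM added, as counts per 1000000 of the summed deposited means) over the organs for each, and, with values, up to 4 members of each list. Mirlet7i, Mir132, Mir212 and Mir129-1 were chosen later. Precision is limited by 3 libraries a side, with 915 to 137700 recovered reads over the 6 libraries of a precursor, and the interval given for 0 reads covers counting error only. The read search and the comparison of organs were tested on simulated data for heart and spleen. The simulated features had reads in every library, so the recovery of 0 reads was not tested. They were simulated at lower means than those of Mir7-1 and Mir7-2 in kidney, liver and spleen. Python 3.11.15, numpy 2.4.6, scipy 1.17.1 and numba 0.67.0 were used, and sequences and positions are from RefSeq (GRCm38.p6) and GENCODE vM21.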

Additional observations from a re-analysis of the deposited data

How the results depend on the processing

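No contrast passed an adjusted p of 0.05 when the p-values of 19 contrasts were adjusted over every feature with a p (smallest adjusted p 0.963) or over those whose mean reached 10 (smallest 0.52, Mir7j in spleen), or when all 20 were taken from the Wald statistics (smallest 0.963), against a smallest of 0.51 as deposited. Relative to the median of its organ, Mir7-1 in liver turned from 0.00 to -0.0039, and the other 19 kept their sign. No difference between organs passed over features whose mean reached 10 (smallest adjusted p 0.837) or over all 10 pairs. With organs scaled by the median of ratios, brain exceeded the next organ 1.71-fold for Mir7-1, 1.92-fold for Mir7-2 and 129.7-fold for Mir7b, and the cause was not tested. Of 17 ratios of side means, 6 changed sign without some 1 library and 2 on summed reads. Of 12 tests of make-up, 6 to 9 passed when single chosen libraries of heart, kidney or liver, or the 3 without Mir124a-3, were left out. No spleen library was left out, so the weight of single spleen libraries was not tested. Heart against kidney for Mir7b was lost without the 3 libraries lacking Mir124a-3 (exact permutation adjusted p = 0.0952). Without the kidney library highest in Mir7b, the kidney share was 1.24% and the ratio of Mir7-2 to Mir7-1 reads also differed between kidney and both heart and liver (exact permutation adjusted p = 0.0208 and 0.0462). No paired analysis was possible because the tables hold no values per sample and the recovered libraries could not be tied to mice. Spread between libraries was widest for Mir7b in kidney, with a coefficient of variation of 120.2%, and for Mir7j in liver, with 82.8%.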
